A study of Mus musculus with 6 samples.

Results

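Insulin receptor signalling and the FoxO factors are described here through 9 genes, the receptor Insr, its substrates Irs1 and Irs2, the kinases Akt1 and Akt2, the transcription factors Foxo1 and Foxo3, the receptor brake Grb14 and the Akt substrate Tbc1d4. The 9 genes were chosen by name for their role, with earlier results of these data known, and all 9 were found among the 56305 genes of the table. Liver RNA was sequenced from 3 WT and 3 Vps15LKO male mice, 1 library per liver. All mice were 5 weeks old, fed standard chow ad libitum and collected at ZT6, which is 6 h after lights on. Vps15LKO mice are AlbCre+;Vps15 f/f animals, in which Cre under the albumin promoter deletes Vps15, the regulatory subunit of class 3 PI3K, in hepatocytes. Liver cells with no use of the albumin promoter in their history keep the gene, and which cells of these livers carry the deletion was not measured. The alleles carried by the WT mice of this experiment are not given in the sources used here.

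In liver, insulin binds its receptor, a tyrosine kinase, which phosphorylates Irs1 and Irs2. These recruit class 1 PI3K, and the lipid it makes brings Akt kinases to the membrane, where they are activated. Active Akt phosphorylates FoxO factors, which then leave the nucleus, so that genes of glucose production fall after a meal and genes of lipid synthesis rise. FoxO factors are also known to raise the transcription of Insr and Irs2 themselves when insulin is low.

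The recovered reads per library lay between 16137093 and 18110223. The size factors by which the authors divided the counts ranged from 0.742 to 0.801 for WT and from 1.23 to 1.41 for Vps15LKO libraries, so a gene with an equal share of the reads has a lower normalized count in Vps15LKO liver. Scaling each library to the same total of reads instead raised the log2 fold change of the typical gene by 0.723, and the 9 genes and the counts of each gene list are therefore given on both scales. Other values are on the scale of the authors' size factors unless total-read scaling or RPM is named. Pik3r4, which encodes Vps15, reached 508, 573 and 460 normalized counts in WT against 341, 362 and 355 in Vps15LKO liver (log2 fold change −0.54, standard error 0.11, adjusted p = 0.0021 from limma). With total-read scaling, its log2 fold change was 0.19 (adjusted p = 0.16), and the deleted exon was not counted apart. Markers of liver cells moved with the genotype. Of 8 hepatocyte markers, 7 were called lower and 0 higher, and their summed normalized count was 2708000 to 3168000 in WT and 786600 to 1198000 in Vps15LKO livers. The summed level of 6 macrophage markers was 5399 to 6400 in WT and 20690 to 21280 in Vps15LKO livers, with 5 called higher. The sum of 6 stellate cell and fibroblast markers was 5406 to 5494 and 23120 to 27640, with 6 called higher, and that of 6 cholangiocyte markers was 663 to 790 and 11580 to 22670, also with 6 called higher. Of 6 endothelial markers 3 were called lower and 3 higher (5996 to 6460 and 4747 to 6254), while with total-read scaling 0 were called lower and 4 higher and their sum was 255 to 286 RPM in WT and 372 to 427 RPM in Vps15LKO livers. The counts of calls for the hepatocyte, stellate cell and cholangiocyte markers were equal on both scales, and 6 in place of 5 macrophage markers were called higher with total-read scaling. Of 6 lymphocyte markers, 4 were tested and 3 called higher on either scale (172 to 303 and 793 to 951). Of 6 adipocyte markers, 1 passed the filter, Cidec, which was called higher, and the 6 summed to 37.1 to 135 in WT and 284 to 573 in Vps15LKO livers, mostly from Cidec in the latter (283 to 558). The defining adipocyte marker Adipoq had at most 3.24 normalized counts in any Vps15LKO liver. Skeletal muscle markers summed to at most 26.2 in any liver, with Myh4 and Pvalb at 0 in all 6. Fewer cells of a type and less RNA per cell cannot be told apart in these bulk samples, and the part of these markers in the results below was not tested.

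Among the 9 genes, 6 were called lower in Vps15LKO liver (Insr, Irs1, Akt2, Foxo1, Foxo3 and Grb14), 2 were called higher (Akt1 and Tbc1d4) and 1 was not called (Irs2). A call needed an adjusted p under 0.05 in limma and a fold of at least 1.2. All 9 passed the filter on low values. Over all 15430 tested genes, 66.5% were called, 33.0% lower and 33.5% higher. The values of the genotypes did not overlap for 8 of the 9 genes, where 73.2% of all tested genes had no overlap. When the same reads were expressed as RPM, the reads per 1000000 reads of the library, 3 of the 9 genes had no overlap, against 82.0% of all tested genes. With total-read scaling, 0 of the 9 genes were called lower and 3 higher (Akt1, Irs2 and Tbc1d4), while 77.8% of all tested genes were called, 11.1% lower and 66.7% higher. The median log2 fold change of the 9 genes was −0.69 with the authors' size factors and 0.04 with total-read scaling, beside −0.02 and 0.70 for all tested genes. The 6 genes called lower thus fell relative to the typical gene and did not differ detectably as a share of the reads.

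**Figure D1:**
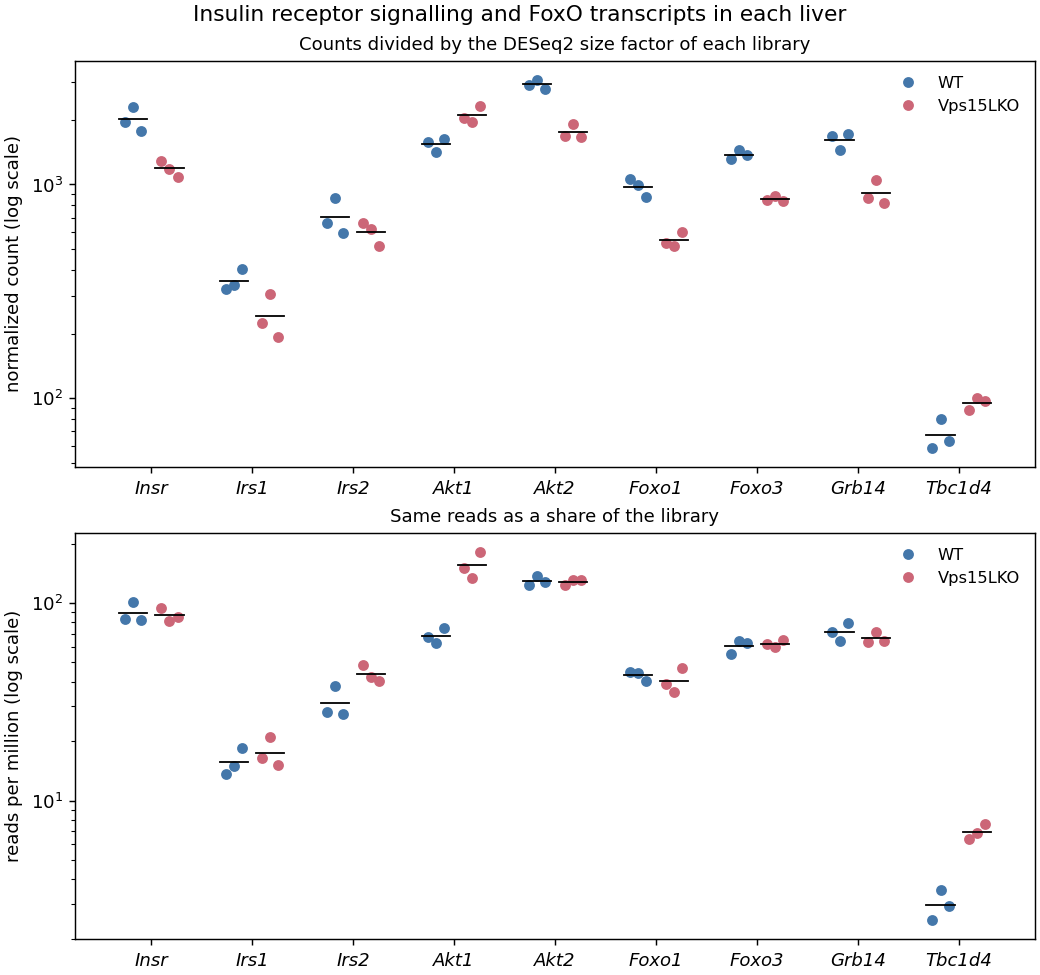
Level of the 9 transcripts in each liver, on log axes, as normalized counts (upper panel) and as RPM (lower panel). Points are livers (blue, WT; red, Vps15LKO) and lines are means of 3; Akt1 and Tbc1d4 lie higher in Vps15LKO livers in both panels, while the other genes shift with the scale.

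Insr (ENSMUSG00000005534) encodes the insulin receptor and lies on the minus strand of chromosome 8 of GRCm38, from 3122061 to 3279617. The 3 WT livers gave 1962, 2301 and 1785 normalized counts, and the 3 Vps15LKO livers gave 1291, 1184 and 1087. Every Vps15LKO value lay below every WT value. Insr fell by 0.76 on the log2 scale (standard error 0.12, adjusted p = 5.0e-04 from limma), which is 1.69-fold lower, and by 0.42 with quantile normalization. As a share of the reads, Insr had 83.2, 102 and 82.0 RPM in WT and 94.3, 80.8 and 85.2 in Vps15LKO livers. These ranges overlapped, and the log2 fold change with total-read scaling was −0.03 (95% interval −0.29 to 0.22).

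Grb14 (ENSMUSG00000026888) encodes an adaptor that binds the activated receptor and inhibits its kinase. It lies on the minus strand of chromosome 2, from 64912476 to 65024987. Its normalized counts were 1676, 1456 and 1720 in WT and 866, 1049 and 823 in Vps15LKO livers. The genotypes did not overlap, and Grb14 fell by 0.83 on the log2 scale (standard error 0.12, adjusted p = 3.1e-04 from limma), about the same as Foxo1 and the largest falls among the 9 genes. In RPM it had 71.0, 64.4 and 79.1 in WT and 63.2, 71.5 and 64.5 in Vps15LKO livers, which overlapped (log2 fold change with total-read scaling −0.10, 95% interval −0.34 to 0.14). The receptor and its brake moved by similar amounts. The ratio of Grb14 to Insr within a liver, which does not depend on the size factor, was 0.854, 0.633 and 0.964 in WT and 0.671, 0.886 and 0.757 in Vps15LKO livers. The mean log2 ratio was −0.31 ± 0.31 in WT and −0.38 ± 0.20 in the Vps15LKO livers (SD, n = 3 each), a difference smaller than the spread between livers (two-sided exact permutation p = 0.8). For any such ratio, 3 livers against 3 allow no exact p under 0.1.

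Irs1 and Irs2 encode the main receptor substrates of liver, and both carry most of their coding sequence in a single exon. Irs1 (ENSMUSG00000055980) lies on the minus strand of chromosome 1, from 82233101 to 82291416, and Irs2 (ENSMUSG00000038894) on the minus strand of chromosome 8, from 10984681 to 11008458. The promoter windows of both genes, taken from RefSeq (GRCm38.p6) and reaching from 250 bases before to 50 bases after the annotated start, are shown because they share a block of letters. Capitals mark matches to the E-box CACGTG, the element bound by Bmal1–Clock, and to CAAAACA, the core of insulin response sequences bound by FoxO factors, here in its reverse complement TGTTTTG. The windows are chr1:82291390-82291689 and chr8:11008880-11009179, printed 5′ to 3′ along the minus strand. The Irs2 window lies wholly upstream of 11008458, the gene limit given above, so its positions refer to the RefSeq start alone.
Irs1: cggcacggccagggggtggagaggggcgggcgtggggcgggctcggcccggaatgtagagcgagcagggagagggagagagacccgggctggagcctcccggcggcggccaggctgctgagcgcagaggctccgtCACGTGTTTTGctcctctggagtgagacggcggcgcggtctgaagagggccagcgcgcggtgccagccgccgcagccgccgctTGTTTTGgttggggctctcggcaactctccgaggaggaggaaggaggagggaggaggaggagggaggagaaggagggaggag
Irs2: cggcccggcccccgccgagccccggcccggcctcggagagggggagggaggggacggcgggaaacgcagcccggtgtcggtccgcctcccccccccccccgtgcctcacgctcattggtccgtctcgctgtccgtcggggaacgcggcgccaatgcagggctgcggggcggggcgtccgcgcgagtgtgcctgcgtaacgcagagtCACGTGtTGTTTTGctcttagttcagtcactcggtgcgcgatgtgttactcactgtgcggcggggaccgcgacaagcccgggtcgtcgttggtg

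In Irs1 the E-box lay at positions −115 to −110 and the first TGTTTTG at −111 to −105, so that the motifs share 2 letters, with a second TGTTTTG at −32 to −26. In Irs2 the E-box lay at −44 to −39 and TGTTTTG at −37 to −31. RefSeq windows were matched for 8 of the 9 genes (12 windows, Insr not among them), and the E-box occurred in those of Irs1 and Irs2 and in no other. Of all 32851 promoter windows of this length, searched on both strands, 7.15% held CACGTG, 6.28% held CAAAACA and 0.408% held both. A match is a description of the letters and not a binding site.

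Irs1 had 324, 340 and 400 normalized counts in WT and 225, 307 and 193 in Vps15LKO livers. All Vps15LKO values were below the WT values, although Vps15LKO replicate 2 came close. Irs1 fell by 0.57 on the log2 scale (standard error 0.18, adjusted p = 0.018 from limma). The call was lost without WT replicate 3 (adjusted p = 0.055), without Vps15LKO replicate 1 (0.062) or without Vps15LKO replicate 3 (0.060), and the log2 fold change turned to 0.15 with total-read scaling (adjusted p = 0.41). Irs1 shares 2822 bases of exon, 30.9% of its exonic length, with the gene Gm9747 on the other strand, which had 98 to 178 reads per library beside 244 to 379 for Irs1. The kit marks strand, but whether counting used strand is not given in the sources used here, so reads in the shared part may be assigned to either gene or to none.

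Irs2 had 662, 863 and 596 normalized counts in WT and 664, 617 and 515 in Vps15LKO livers, and the genotypes overlapped. Its log2 fold change was −0.23 (95% interval −0.58 to 0.12, adjusted p = 0.22 from limma), an interval that holds both no change and a fall of the size seen for Irs1. With any 1 liver left out, Irs2 stayed uncalled, at −0.34 (without WT replicate 3) to −0.08 (without WT replicate 2). In RPM the values were 28.0, 38.2 and 27.4 in WT and 48.4, 42.1 and 40.3 in Vps15LKO livers, with no overlap, and Irs2 was called higher with total-read scaling (log2 fold change 0.50, adjusted p = 0.010 from limma). Irs2 lay 0.21 below the all-gene median on either scale. The ratio of Irs2 to Irs1 was 2.04, 2.54 and 1.49 in WT and 2.95, 2.01 and 2.67 in Vps15LKO livers. The log2 ratio was 0.98 ± 0.39 and 1.32 ± 0.28 (SD, n = 3 each), and the groups overlapped (two-sided exact permutation p = 0.3).

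Akt1 and Akt2 encode serine/threonine kinases downstream of class 1 PI3K. Akt2 is the isoform best known for insulin action on glucose and lipid metabolism, and Akt1 for growth and survival. Akt2 (ENSMUSG00000004056) lies on the plus strand of chromosome 7, from 27591552 to 27640826, and had 2914, 3094 and 2790 normalized counts in WT and 1683, 1908 and 1662 in Vps15LKO livers. The groups lay well apart, and Akt2 fell by 0.75 on the log2 scale (standard error 0.10, adjusted p = 1.7e-04 from limma), and by 0.29 with quantile normalization. Its share of the reads was 124, 137 and 128 RPM in WT and 123, 130 and 130 in Vps15LKO livers, nearly the same (log2 fold change with total-read scaling −0.02, 95% interval −0.22 to 0.18).

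Akt1 (ENSMUSG00000001729) lies on the minus strand of chromosome 12, from 112653821 to 112674884. It had 1583, 1423 and 1626 normalized counts in WT and 2056, 1956 and 2323 in Vps15LKO livers. Every Vps15LKO value exceeded every WT value, and Akt1 rose by 0.45 on the log2 scale (standard error 0.10, adjusted p = 0.0041 from limma), or 1.37-fold, and by 0.86 with quantile normalization. In RPM, Akt1 had 67.1, 62.9 and 74.7 in WT and 150, 133 and 182 in Vps15LKO livers. With total-read scaling the rise was 1.18 (standard error 0.13, adjusted p = 2.3e-05 from limma). Akt1 kept its direction and its call in every alternative tried except a minimum fold of 2 with the authors' size factors, which left the value at 0.45.

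The 2 kinases therefore moved apart within each liver. The ratio of Akt2 to Akt1 normalized counts was 1.84, 2.18 and 1.72 in WT and 0.819, 0.975 and 0.715 in Vps15LKO livers, with no overlap. The log2 ratio was 0.93 ± 0.18 in WT and −0.27 ± 0.22 in the Vps15LKO livers (SD, n = 3 each), a difference of −1.20 that exceeds the spread between livers several-fold. The two-sided exact permutation p was 0.1, the smallest that 3 against 3 can give (0.4 after Benjamini-Hochberg adjustment over the 4 ratios). With any 1 liver left out the difference stayed between −1.31 and −1.09. The other 3 ratios (Irs2 to Irs1, Foxo1 to Foxo3 and Grb14 to Insr) overlapped between genotypes.

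**Figure D2:**
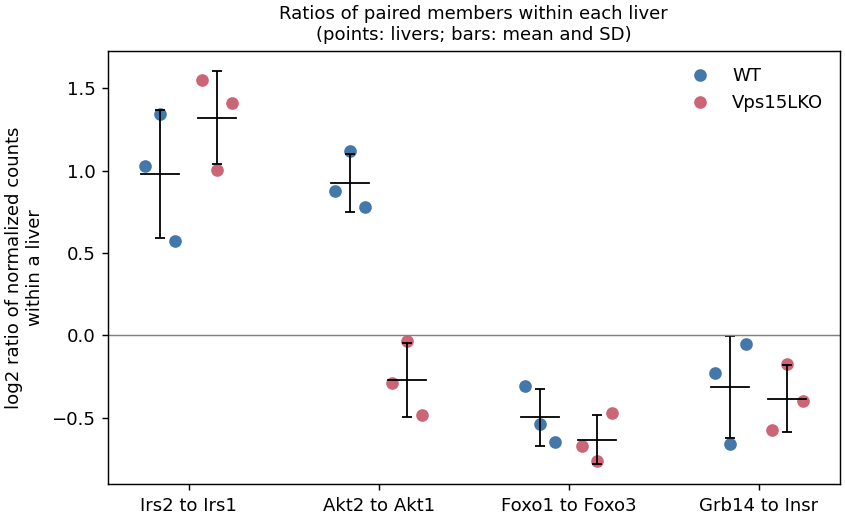
log2 ratio of the normalized counts of paired members within each liver (points; bars, mean and SD of 3 livers; blue, WT; red, Vps15LKO). The Akt2 to Akt1 ratio is above 0 in the 3 WT livers and below 0 in the 3 Vps15LKO livers, and the other ratios overlap.

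Per kilobase of exon, where levels of different genes can be compared, Akt1 and Akt2 were close to each other in WT liver (377 ± 26.1 and 411 ± 21.4 normalized counts per kb, SD, n = 3) and stood apart in Vps15LKO liver (515 ± 46.3 and 246 ± 19.1). Of the summed level per kb of Akt1 and Akt2, Akt1 made up 47.8% ± 3.03 in WT and 67.6% ± 3.40 in the Vps15LKO livers (SD, n = 3 each). The shares did not overlap between the genotypes. They were computed after the values had been seen and carry no test. The summed level itself was 788 ± 6.99 and 761 ± 34.1 normalized counts per kb, and its ranges overlapped on this scale.

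**Figure D3:**
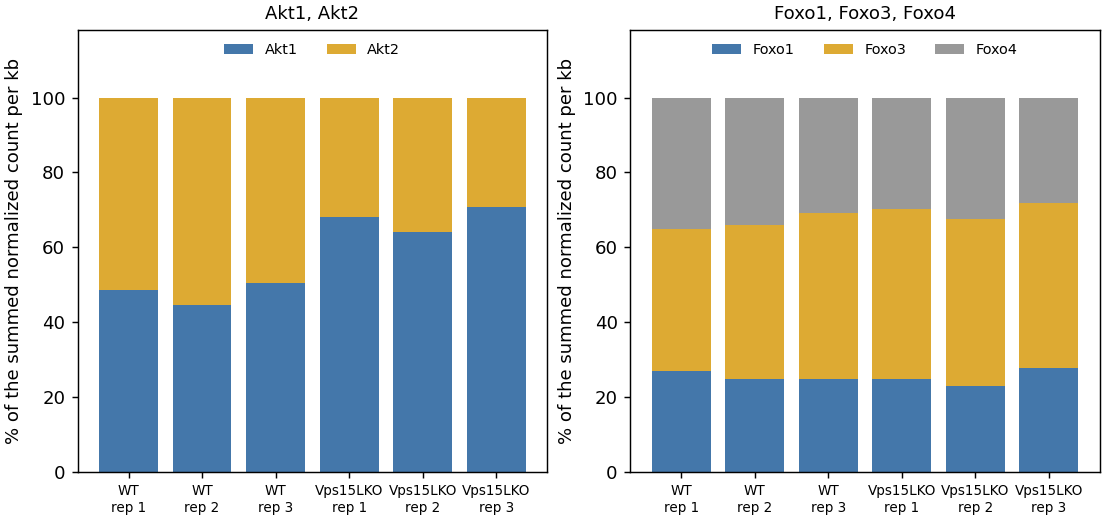
Share of each transcript in the summed normalized count per kb of exon, in each liver, for Akt1 and Akt2 (left) and for Foxo1, Foxo3 and Foxo4 (right). Akt1 takes 44.5% to 50.3% in WT and 64.1% to 70.9% in Vps15LKO livers, while the Foxo shares differ little between genotypes.

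An Akt1 promoter window is shown as the only one of the 12 that held GTAAACA, the core of the FoxO binding element (3.65% of all windows). It lies at chr12:112674835-112675134 on the minus strand, and capitals mark the reverse complement TGTTTAC at positions −161 to −155. The window at the other annotated start of Akt1 and the 4 windows of Akt2 held none of the motifs searched.
Akt1: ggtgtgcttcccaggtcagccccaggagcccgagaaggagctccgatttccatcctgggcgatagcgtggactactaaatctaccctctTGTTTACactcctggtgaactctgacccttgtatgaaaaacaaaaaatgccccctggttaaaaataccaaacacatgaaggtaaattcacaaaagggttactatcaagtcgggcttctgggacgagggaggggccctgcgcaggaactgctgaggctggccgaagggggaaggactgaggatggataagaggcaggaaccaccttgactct

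Foxo1 and Foxo3 encode the FoxO factors best known in liver, where Foxo1 drives genes of glucose production. Foxo1 (ENSMUSG00000044167) lies on the plus strand of chromosome 3, from 52268336 to 52353221, and had 1058, 996 and 874 normalized counts in WT and 531, 518 and 601 in Vps15LKO livers. There was no overlap, and Foxo1 fell by 0.82 on the log2 scale (standard error 0.11, adjusted p = 1.8e-04 from limma). The antisense gene Gm20402 shares 674 bases with its exons (7.78%) and had 54 to 76 reads per library, against 639 to 850 for Foxo1. Foxo3 (ENSMUSG00000048756), on the minus strand of chromosome 10 from 42181841 to 42276755, had 1310, 1445 and 1371 normalized counts in WT and 845, 878 and 833 in Vps15LKO livers. It fell by 0.69 (standard error 0.08, adjusted p = 1.2e-04 from limma), again with no overlap, and by 0.45 with quantile normalization.

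As shares of the reads both factors overlapped between genotypes. Foxo1 had 44.8, 44.0 and 40.2 RPM in WT and 38.7, 35.3 and 47.1 in Vps15LKO livers (log2 fold change with total-read scaling −0.10, 95% interval −0.38 to 0.18), and Foxo3 had 55.5, 63.9 and 63.0 in WT and 61.7, 59.9 and 65.3 in Vps15LKO livers (0.04, 95% interval −0.18 to 0.26). The ratio of Foxo1 to Foxo3 was 0.808, 0.689 and 0.637 in WT and 0.628, 0.589 and 0.722 in Vps15LKO livers, a difference within the spread between livers (two-sided exact permutation p = 0.4). Foxo4, also present in these livers, fell in parallel (log2 fold change −0.95, adjusted p = 2.2e-04 from limma, and −0.23 with total-read scaling, adjusted p = 0.097). On the scale of the authors' size factors, the summed level of Foxo1, Foxo3 and Foxo4 was 442 ± 29.9 normalized counts per kb in WT and 252 ± 7.12 in Vps15LKO livers, and the share of Foxo1 in it was 25.4% ± 1.18 and 25.2% ± 2.42 (SD, n = 3 each). Foxo4 held 33.4% ± 2.2 and 30.2% ± 2.1, above Foxo1 in both genotypes. Unlike Akt1 and Akt2, the Foxo transcripts showed little shift in their proportions. Foxo6 had at most 5 normalized counts in any liver and was not tested.

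Tbc1d4 (ENSMUSG00000033083), also known as AS160, encodes a Rab GTPase-activating protein that Akt phosphorylates and that controls glucose transporter traffic in muscle and fat. It lies on the minus strand of chromosome 14, from 101442360 to 101609191, and was the lowest of the 9 genes in both genotypes, with 44 to 138 reads per library. It had 58.3, 79.9 and 63.4 normalized counts in WT and 87.8, 100 and 97.6 in Vps15LKO livers. The groups did not overlap but were close, and Tbc1d4 rose by 0.51 on the log2 scale (standard error 0.17, adjusted p = 0.027 from limma). The call was lost without WT replicate 1 (adjusted p = 0.075), WT replicate 3 (0.056), Vps15LKO replicate 2 (0.083) or Vps15LKO replicate 3 (0.071), and the value was 0.01 with quantile normalization. In RPM it had 2.47, 3.53 and 2.91 in WT and 6.41, 6.86 and 7.65 in Vps15LKO livers (log2 fold change with total-read scaling 1.22, adjusted p = 2.7e-04 from limma). Its paralogue Tbc1d1 rose further, from 140 ± 13.6 to 471 ± 36.1 normalized counts (SD, n = 3; log2 fold change 1.74, adjusted p = 6.2e-06 from limma, and 2.47 with total-read scaling). The ratio of Tbc1d1 to Tbc1d4 was 1.94 to 2.36 in WT and 4.41 to 5.25 in Vps15LKO livers, a description chosen after the values had been seen.

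**Figure D4:**
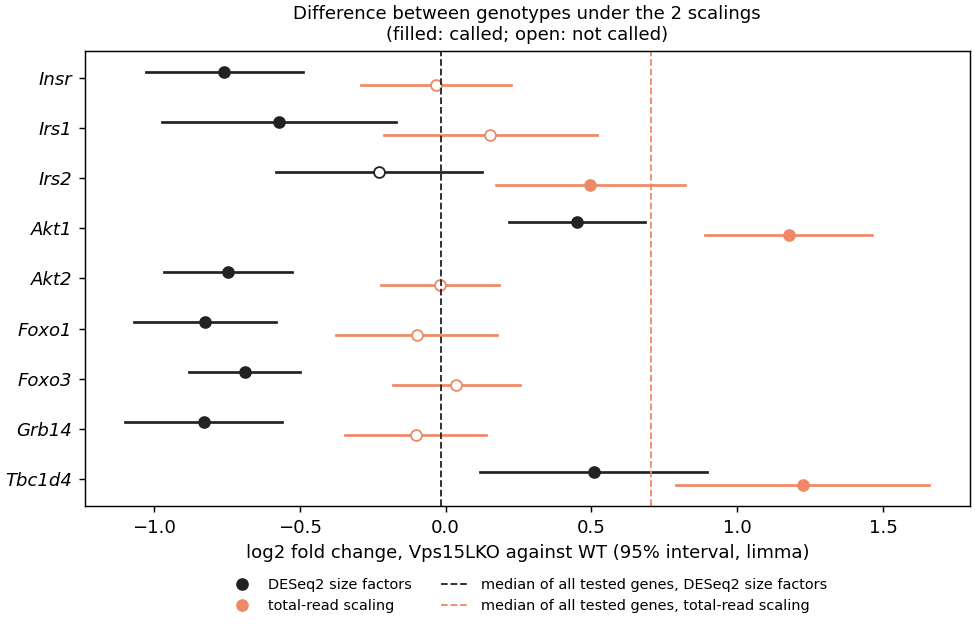
log2 fold change (Vps15LKO against WT) of the 9 genes from limma with 95% intervals, with the authors' DESeq2 size factors (black) and with total-read scaling (orange). Filled points were called, and dashed lines mark the median of all tested genes on each scale (−0.02 and 0.70); each gene keeps its distance from that median while 6 calls of a fall are lost.

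The order of levels per kb of exon changed between the genotypes. In WT liver it ran Akt2, Akt1, Grb14, Foxo3, Insr, Foxo1, Irs2, Irs1 and Tbc1d4, from 411 to 8.76 normalized counts per kb. Akt2 and Akt1 overlapped in their ranges, as did Foxo1 and Irs2, and every other neighbour in the order was separated in all 3 livers. In Vps15LKO liver it ran Akt1, Akt2, Grb14, Foxo3, Irs2, Insr, Foxo1, Irs1 and Tbc1d4, from 515 to 12.4, where Grb14 overlapped Foxo3 and Irs2 overlapped Insr. Irs2 overlapped Foxo1 in WT liver and lay above it in all 3 Vps15LKO livers. For the similarity of profiles over the 6 livers, measured as the root mean square difference of log2 values centred on the WT mean, 116 other genes of the pathway were compared with each member. Akt2 and Foxo3 were each other's nearest gene (0.07). The nearest gene was the acetyl-CoA carboxylase gene Acaca for Irs1 (0.12), the PI3K catalytic subunit gene Pik3cb for Irs2 (0.15), the phosphatase gene Ptpn2 for Akt1 (0.08) and Tbc1d4 (0.15), Atg14 for Foxo1 (0.10) and the mTORC2 subunit gene Mapkap1 for Grb14 (0.11).

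The other genes of the pathway were taken from 5 lists of 111 genes, of which 108 passed the filter. Of these, 44 were called lower and 29 higher, with a median log2 fold change of −0.09. With total-read scaling, 21 were called lower and 66 higher, with a median of 0.63. Over all tested genes the shares called were 33.0% lower and 33.5% higher with the authors' size factors and 11.1% lower and 66.7% higher with total-read scaling, and nothing particular to the 5 lists together is read from their counts. Among 21 tested receptor adaptors and brakes, 7 were called lower and 9 higher, and 3 and 13 with total-read scaling. Grb10, the closest relative of Grb14 and likewise an inhibitor of the receptor, rose from 77.1 ± 21.4 to 830 ± 230 normalized counts (SD, n = 3; log2 fold change 3.41, adjusted p = 6.9e-06 from limma). The ratio of Grb10 to Grb14, chosen after the values had been seen, was 0.0412 to 0.0588 in WT and 0.626 to 1.33 in Vps15LKO livers. The ubiquitin ligase genes Cbl and Cblb rose by 1.32 and 0.92. With total-read scaling Grb10, Cbl and Cblb rose by 4.13, 2.05 and 1.65. Ceacam1, which encodes a receptor substrate that promotes insulin clearance, fell from 4450 ± 561 to 1087 ± 411 normalized counts (log2 fold change −2.10, adjusted p = 1.1e-04 from limma, and −1.37 with total-read scaling). The exchange factor gene Sos1 and the adaptor gene Grb7 fell by 1.09 and 1.05, of which Sos1 was also called with total-read scaling and Grb7 was not.

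Among 32 tested genes of the PI3K–Akt relay, 13 were called lower and 7 higher, and 2 and 22 with total-read scaling, beside 33.0% and 33.5%, and 11.1% and 66.7%, over all tested genes. The 4 class 1 PI3K genes of this list had log2 fold changes of −0.29 for Pik3ca, which was called, and −0.08, −0.34 and −0.18 for Pik3cb, Pik3r1 and Pik3r2, which were not. With total-read scaling these 4 were called higher, at 0.39 to 0.65. Besides Tbc1d1, Sgk1, which encodes a kinase related to Akt, rose from 414 ± 110 to 880 ± 123 normalized counts (log2 fold change 1.11, adjusted p = 9.3e-04 from limma, and 1.84 with total-read scaling). Deptor, which encodes an mTOR inhibitor, fell from 4966 ± 440 to 1337 ± 243 (log2 fold change −1.90, adjusted p = 9.8e-06 from limma). Pde3b, which encodes the phosphodiesterase by which Akt lowers cyclic AMP, fell by 1.44, and the Akt phosphatase gene Phlpp1 by 0.94. Deptor and Pde3b stayed called with total-read scaling (−1.18 and −0.72), and Phlpp1 did not (−0.22).

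Among 19 tested FoxO family members and regulators, 2 were called lower (Foxo4 and Usp7) and 6 higher, and 0 and 18 with total-read scaling, beside 33.0% and 33.5%, and 11.1% and 66.7%, over all tested genes. Usp7, which encodes a FoxO deubiquitinase, turned from −0.43 to a called 0.30 with total-read scaling. The list holds 6 genes of 14-3-3 proteins, which hold phosphorylated FoxO in the cytosol. Of these Ywhag (log2 fold change 0.49), Ywhah and Ywhaz were called higher, and Ywhab (0.24), Ywhaq (0.16) and Ywhae (−0.14) were not, while all 6 were called higher with total-read scaling (0.59 to 2.13). Ywhah went from a mean of 721 to 1895 normalized counts and Ywhaz from 1805 to 3637 (n = 3 each; log2 fold changes 1.40 and 1.02, adjusted p = 1.4e-05 and 1.5e-04 from limma). Setd7, which encodes a methyltransferase reported to act on FoxO3, rose by 2.35 on the log2 scale (3.07 with total-read scaling).

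Genes known to be activated by FoxO factors were called in both directions, 11 of 25 lower and 7 higher, beside 33.0% lower and 33.5% higher over all tested genes. The glucose production genes were among the falls. G6pc, which encodes the catalytic subunit of glucose-6-phosphatase, had 4242, 2900 and 5513 normalized counts in WT and 479, 1255 and 142 in Vps15LKO livers (log2 fold change −3.21, standard error 0.66, adjusted p = 0.0024 from limma). Pck1, which encodes the cytosolic PEP carboxykinase, fell from 35560 ± 6883 to 4447 ± 1342 (log2 fold change −3.03), and Klf15, a transcription factor of amino acid use in fasting, fell by 2.37. Igfbp1, a secreted IGF-binding protein and a classical FoxO target, moved the other way, with 1900, 939 and 886 normalized counts in WT and 14701, 11261 and 11218 in Vps15LKO livers (log2 fold change 3.40, standard error 0.27, adjusted p = 1.4e-05 from limma). Cdkn1a, the gene of the cell-cycle inhibitor p21, and Pdk4, the gene of a pyruvate dehydrogenase kinase, rose by 4.30 and 2.52 (5.02 and 3.24 with total-read scaling). With total-read scaling 9 of the 25 were called lower and 13 higher, beside 11.1% and 66.7% over all tested genes, and the log2 fold changes of G6pc, Pck1 and Klf15 (−2.48, −2.31 and −1.65) and of Igfbp1 (4.12) kept their direction and call.

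Genes that insulin is known to induce in liver were called lower in 11 of 11 tested cases, with a median log2 fold change of −1.27, beside 33.0% called lower over all tested genes. Thrsp, which encodes a regulator of lipid synthesis, fell from 5737 ± 1132 to 247 ± 45.2 normalized counts (SD, n = 3; log2 fold change −4.53, adjusted p = 4.7e-07 from limma). Insig1, which encodes a protein that holds back SREBP processing, had 8933, 6544 and 3219 normalized counts in WT and 2029, 2552 and 1919 in Vps15LKO livers (log2 fold change −1.41, adjusted p = 0.0044 from limma). With total-read scaling 7 of the 11 were called lower, Thrsp (−3.80) and Insig1 (−0.69) among them, and 0 higher, beside 11.1% lower and 66.7% higher over all tested genes. The remaining gene of the list, Pnpla3, was too low to be tested and lay the other way, with 1.33, 2.50 and 5.39 normalized counts in WT and 12.98, 12.97 and 19.8 in Vps15LKO livers.

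**Figure D5:**
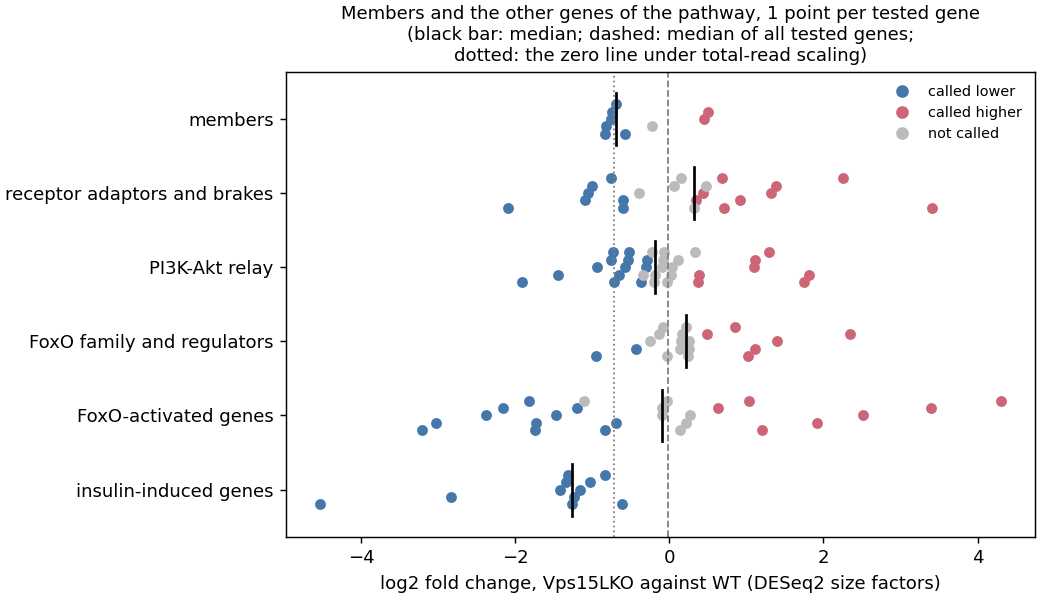
log2 fold change (Vps15LKO against WT, authors' size factors) of the 9 members and of the tested genes of the 5 wider lists, 1 point per gene (blue, called lower; red, called higher; grey, not called; black bar, median; dashed line, median of all tested genes; dotted line, where 0 lies with total-read scaling). All 11 tested insulin-induced genes lie below 0, while the FoxO-activated genes run from −3.21 to 4.30.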

How the data were processed

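Liver RNA of 3 WT and 3 Vps15LKO mice was measured with 1 library per liver. The authors cleaned the reads (SOAPnuke), aligned them (HISAT2, GRCm38) and assigned them to genes (featureCounts). They divided the counts by 1 DESeq2 size factor per library, and the deposited signal is this normalized count for 56305 genes. Versions and strand use are not given in the sources used here. Every value above 0 (100%, tolerance 0.1 read) was a whole multiple of 1 step per library, so whole reads were recovered. Because the authors' scaling sets the direction of many changes, RPM are given beside normalized counts.

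GENCODE M21 (GRCm38) gave symbols for 55227 genes, coordinates and exonic lengths. Genes that reached 20 normalized counts in 3 or more livers were compared on log2(normalized count + 1), which understates changes of low genes, with limma 3.58.1 (trend) in R 4.3.3 and Benjamini-Hochberg adjustment over all tested genes. The threshold for a call was 0.05 for the adjusted p and 1.2 for the fold. Ratios were compared with an exact permutation test. Replicates of a genotype differed by more than sampling noise, and each is 1 mouse. The script was tested on simulated data. Genotypes and replicate numbers come from the labels. The members and lists were chosen with earlier results of these data known. Genes named are the members, Pik3r4, up to 3 largest rises and falls per list (called, with 100 or more normalized counts on average), and the nearest gene of each member, of which some are not reported here, while the PI3K subunits, Gm9747, Gm20402, Foxo6, Adipoq, Ywhag, Ywhab, Ywhaq, Ywhae, Cidec, Myh4, Pvalb and Pnpla3 were named after their values were seen. Alternatives were other pseudocounts, filters, scalings and folds, no trend, edgeR 4.0.16, DESeq2 1.42.0 and voom on the recovered reads, each liver left out and a replicate block.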

Additional observations from a re-analysis of the deposited data

How the results depend on the processing

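With total-read scaling, 0 members were called lower, 21 genes of the wider lists lower and 66 higher, and the log2 fold changes turned to 0.15 for Irs1, 0.50 for Irs2, 0.037 for Foxo3 and 0.19 for Pik3r4. This scaling weighs libraries by all reads, including the most abundant transcripts. With a minimum fold of 2, 0 members were called lower and 0 higher, as were 24 and 19 genes of the wider lists, and Pik3r4 (−0.54) was not called. With quantile normalization 1 member was called higher, and the log2 fold changes of Insr, Akt1, Akt2 and Foxo3 kept their calls but moved by over 1.5 times (−0.42, 0.86, −0.29 and −0.45). With each liver left out, 1 to 2 members were called higher. The calls of Insr, Akt2, Foxo1, Foxo3 and Grb14 were lost under total-read scaling and a minimum fold of 2 and under none of the 19 other alternatives. edgeR, DESeq2 and limma voom on whole reads each called 6 members lower and 2 higher. No ratio moved by more than the spread between livers. With 1 liver left out, the log2 difference of Irs2 to Irs1 still ran from 0.14 to 0.52. That of Foxo1 to Foxo3 ran from −0.22 to −0.04, and that of Grb14 to Insr from −0.24 to 0.06, with a change of sign. Same-numbered livers did not deviate together (correlations −0.01, −0.01 and 0.05), and with replicate number as a block 6 members were lower and 2 higher, with 44 and 28 genes of the wider lists. With groups of 3, no search for outlying livers was made, and Tbc1d4 and Irs1 rest on the fewest reads (44 to 138 and 244 to 379 per library).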

Other observations

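The Vps15LKO livers differed among themselves in the same order for these values. Replicate 2 had the highest Akt2 to Akt1 ratio (0.975), followed by replicate 1 (0.819) and replicate 3 (0.715). The summed normalized count of the 8 hepatocyte markers followed that order, at 1198000, 976800 and 786600, and the sum of the 6 cholangiocyte markers ran the other way, at 11580, 14900 and 22670. The same orders held in RPM, at 81700, 71310 and 61630 for the hepatocyte and 790, 1088 and 1776 for the cholangiocyte markers. The size factors of these libraries also differed in that order, from 1.23 to 1.41. In WT the order did not hold for the hepatocyte markers. The WT ratio was highest in replicate 2 (2.18, against 1.84 in replicate 1 and 1.72 in replicate 3). The hepatocyte sum was highest in replicate 1 (3168000, against 2943000 in replicate 2 and 2708000 in replicate 3). The WT cholangiocyte sum did run against the ratio, at 663, 736 and 790 in replicates 2, 1 and 3. The WT size factors were highest where the ratio was highest (0.801, 0.754 and 0.742 in replicates 2, 1 and 3), the reverse of the Vps15LKO livers. These are values of 3 livers per genotype, noticed after the data were seen, and carry no test.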
